A study of Mus musculus with 12 samples.

Results

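Foxp3 and 8 further genes that mark regulatory T cells (Il2ra, Ctla4, Ikzf2, Ikzf4, Klrg1, Lrrc32, Gpr83 and Nrp1) were followed through 4 groups of sorted mouse CD4 T cells. The 9 genes were taken by name from the deposited gene tables, where 23233 annotated features had a value, and all 9 were among the 11108 features expressed highly enough to test. RNA came from spleens of C57BL/6 mice with homozygous floxed Ets1 alleles, either without Cre (WT) or with CD4-cre (labelled knockout, KO). The CD4-cre transgene is active in the T cell lineage from the thymus on. CXCR5+PD-1+ cells are the T follicular helper (TFH) cells, which help B cells in germinal centres, and CXCR5-PD-1- cells are the Non-TFH cells. Both populations were sorted from both genotypes, and each of the 4 groups had 3 libraries. The labels name no gate on CD25 or Foxp3, give no age or sex, and do not say whether replicates were separate mice, so p-values measure the spread between libraries that may be technical replicates.

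Regulatory T cells restrain immune responses, and the transcription factor Foxp3 sets and keeps their identity. They depend on interleukin 2 from other T cells, which they take up with the high-affinity receptor chain CD25 (Il2ra), and they strip costimulatory ligands from antigen-presenting cells with CTLA-4. A follicular subset carries CXCR5 and PD-1 like TFH cells and limits germinal centre reactions, so a CXCR5+PD-1+ sort can hold both kinds of cell.

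Ets1 is a transcription factor that binds DNA sites built around the letters GGAA. The promoters of 4 of the genes are shown here because 3 of them fell in KO TFH libraries (Foxp3, Il2ra, Ctla4) and Gpr83 rose in both KO groups. Promoter windows of 300 bases, all on the plus strand, were taken from RefSeq on GRCm38.p6, where 5 of the 9 genes had an entry. Each is printed 5′ to 3′ in lower case, and capitals mark each GGAA, on either strand, so that TTCC is a match on the minus strand. The windows lie at chrX:7579426-7579725 for Foxp3 (the first of its 2 listed starts), chr2:11642542-11642841 for Il2ra, chr1:60908775-60909074 for Ctla4 and chr9:14859960-14860259 for Gpr83.
Foxp3: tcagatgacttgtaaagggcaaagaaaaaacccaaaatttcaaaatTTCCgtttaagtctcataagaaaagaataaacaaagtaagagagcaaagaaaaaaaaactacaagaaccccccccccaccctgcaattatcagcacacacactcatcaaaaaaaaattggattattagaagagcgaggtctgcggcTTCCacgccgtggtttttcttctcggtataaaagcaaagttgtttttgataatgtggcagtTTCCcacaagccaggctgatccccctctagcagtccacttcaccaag
Il2ra: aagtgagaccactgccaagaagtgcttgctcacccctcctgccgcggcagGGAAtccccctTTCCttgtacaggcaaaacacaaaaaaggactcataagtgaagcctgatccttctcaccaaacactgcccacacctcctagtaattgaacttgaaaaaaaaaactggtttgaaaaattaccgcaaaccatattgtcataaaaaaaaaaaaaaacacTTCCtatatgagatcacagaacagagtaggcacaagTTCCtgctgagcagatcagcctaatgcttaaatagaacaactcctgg
Ctla4: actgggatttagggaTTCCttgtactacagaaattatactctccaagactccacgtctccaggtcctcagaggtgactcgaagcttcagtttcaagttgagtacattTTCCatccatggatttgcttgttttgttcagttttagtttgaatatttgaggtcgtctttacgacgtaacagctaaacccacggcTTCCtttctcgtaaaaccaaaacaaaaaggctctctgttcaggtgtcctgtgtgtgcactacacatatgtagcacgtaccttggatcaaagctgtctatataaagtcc
Gpr83: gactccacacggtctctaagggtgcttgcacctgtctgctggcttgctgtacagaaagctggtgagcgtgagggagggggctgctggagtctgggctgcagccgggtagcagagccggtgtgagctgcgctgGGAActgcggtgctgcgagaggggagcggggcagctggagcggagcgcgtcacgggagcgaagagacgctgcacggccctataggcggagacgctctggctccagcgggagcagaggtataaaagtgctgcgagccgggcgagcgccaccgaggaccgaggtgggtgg
The Foxp3 window held 3 matches, the window at its other start 2, Il2ra 4, Ctla4 3 and Gpr83 1, and the window of Nrp1 (not printed) held 5. A match to GGAA was present in 96% of all 32851 promoter windows of this length, with a median of 3 and quartiles of 2 and 5 matches. The longer ETS site CGGAAGT, searched on both strands and itself containing GGAA, was in none of the 6 windows of these genes and in 6.42% of all windows. A match is a description of the letters and not of binding.

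Most of the T cell transcripts checked were high in all libraries. Cd3e stood at 216 to 671 scaled FPKM and Cd4 at 168 to 422 over the 12 libraries (FPKM, fragments per transcript length and library depth, scaled between libraries by the median ratio). Thy1, the T cell surface protein CD90, went the other way, at 298 to 301 in WT Non-TFH, 27.1 to 31.3 in KO Non-TFH, 27.6 to 42.3 in WT TFH and 1.3 to 1.95 in KO TFH libraries. Pdcd1, which encodes PD-1, was at 1.4 to 1.65 in Non-TFH and 317 to 708 in TFH libraries. The Ets1 transcript was not lower in KO libraries, at 404 to 413 (WT) and 382 to 415 (KO) in Non-TFH and 171 to 215 (WT) and 224 to 271 (KO) in TFH cells, where it was called higher in KO libraries (0.37 ± 0.10 on the log2 scale, adjusted p = 0.015 by limma). A whole-gene value can include exons outside the deleted segment, so it does not check the deletion. TFH libraries also held transcripts of other cells: the sum of 9 macrophage genes was 1107 to 1981 in WT TFH and 181 to 240 in KO TFH libraries, against 12.8 to 21.8 in WT Non-TFH and 26.6 to 37.9 in KO Non-TFH libraries. The sum of 8 B cell genes was 64.3 to 73.7 in WT TFH, 37.1 to 42.2 in KO TFH and 1.21 to 2.88 in all Non-TFH libraries. Depth, estimated from the deposited confidence bounds, was 11.9 to 15.6 M fragments per library. The table of WT Non-TFH library 1 ended part way along chromosome X, with 264 named entries there against 1016 to 1043 in the other libraries, and it included Foxp3.

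Foxp3 (mm10 chromosome X, 7579676 to 7595243) was lower in TFH cells of KO than of WT mice. In WT TFH libraries 1, 2 and 3 it stood at 41.1, 59.7 and 69.5 scaled FPKM, and in KO TFH libraries at 7.92, 10.7 and 7.22. In Non-TFH cells it was at 14.3, 14.6 and 11.8 in WT and at 12.4, 14.1 and 12.6 in KO libraries. Every WT TFH library was above every other library and every KO TFH library was below all Non-TFH libraries, whereas the WT and KO Non-TFH libraries overlapped. Mean levels (± SD, n = 3 per group here and below unless stated) were 56.8 ± 14.4 in WT TFH, 13.6 ± 1.56 in WT Non-TFH, 13 ± 0.908 in KO Non-TFH and 8.61 ± 1.83 in KO TFH cells. The WT TFH mean was therefore 6.6 times the KO TFH mean and 4.19 times the WT Non-TFH mean.

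Changes were tested with limma on log2(scaled FPKM + 1), a scale that understates changes of genes at low levels, and a gene is called here when its p-value, adjusted over all 11108 features, was under 0.05. Foxp3 fell by 2.57 ± 0.19 (SE) in KO TFH cells (adjusted p = 2.9e-06) and changed by -0.05 ± 0.19 in KO Non-TFH cells (adjusted p = 0.92). The difference between these KO effects (the interaction) was -2.52 ± 0.27 (adjusted p = 9.1e-05). In WT mice Foxp3 was higher in TFH than in Non-TFH cells by 1.96 ± 0.19 (adjusted p = 2.7e-06), and in KO mice it was lower by a change of -0.56 ± 0.19 (adjusted p = 0.022). The last call was lost without scaling (-0.29, adjusted p = 0.2) and with quantile normalization (-0.32, adjusted p = 0.15). It was also lost without KO Non-TFH library 2 (adjusted p = 0.068), KO TFH library 1 (0.061) or KO TFH library 3 (0.082), within a range of 0.0064 to 0.2 over its 22 alternatives. Exact two-sided permutation tests of Foxp3 gave p = 0.1 for every comparison but KO against WT in Non-TFH cells (p = 0.8), and 0.1 is the smallest value that 3 against 3 libraries allow.

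Each Foxp3 value rested on an estimated 886 to 1412 fragments in WT TFH and 359 to 464 in KO TFH libraries, so counting error was small beside the difference between them. In all 12 libraries the entry also held Ppp1r3fos, named Flicr in RefSeq, a long noncoding RNA gene (X, 7573600 to 7581016) that shares 1341 of its 7417 bases with Foxp3, and reads of both genes cannot be told apart in it. As in all bulk samples, fewer Foxp3+ cells and less Foxp3 RNA per cell cannot be told apart either. Of 12 macrophage markers 10 were called lower in KO TFH libraries and 2 higher, against 15.1% and 15.8% of all features. These 2 were Lyz2 and Cd68, the latter in an entry shared with Eif4a1. The Y-linked genes Ddx3y, Eif2s3y, Kdm5d and Uty had a value of 0 in every KO TFH library, while Ddx3y stood at 2.22 to 33.5 in WT TFH and 40.6 to 68.4 in those Non-TFH libraries with a value. The X-linked gene Xist was at 14.9 to 23.4 in KO TFH, 0 to 16 in WT TFH and 0.0832 to 19.8 in KO Non-TFH libraries. It was at 0.164 to 1.82 in those WT Non-TFH libraries with a value. The part of these features in the changes of Foxp3, the other regulatory T cell genes and the gene lists was not tested.

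**Figure D1:**
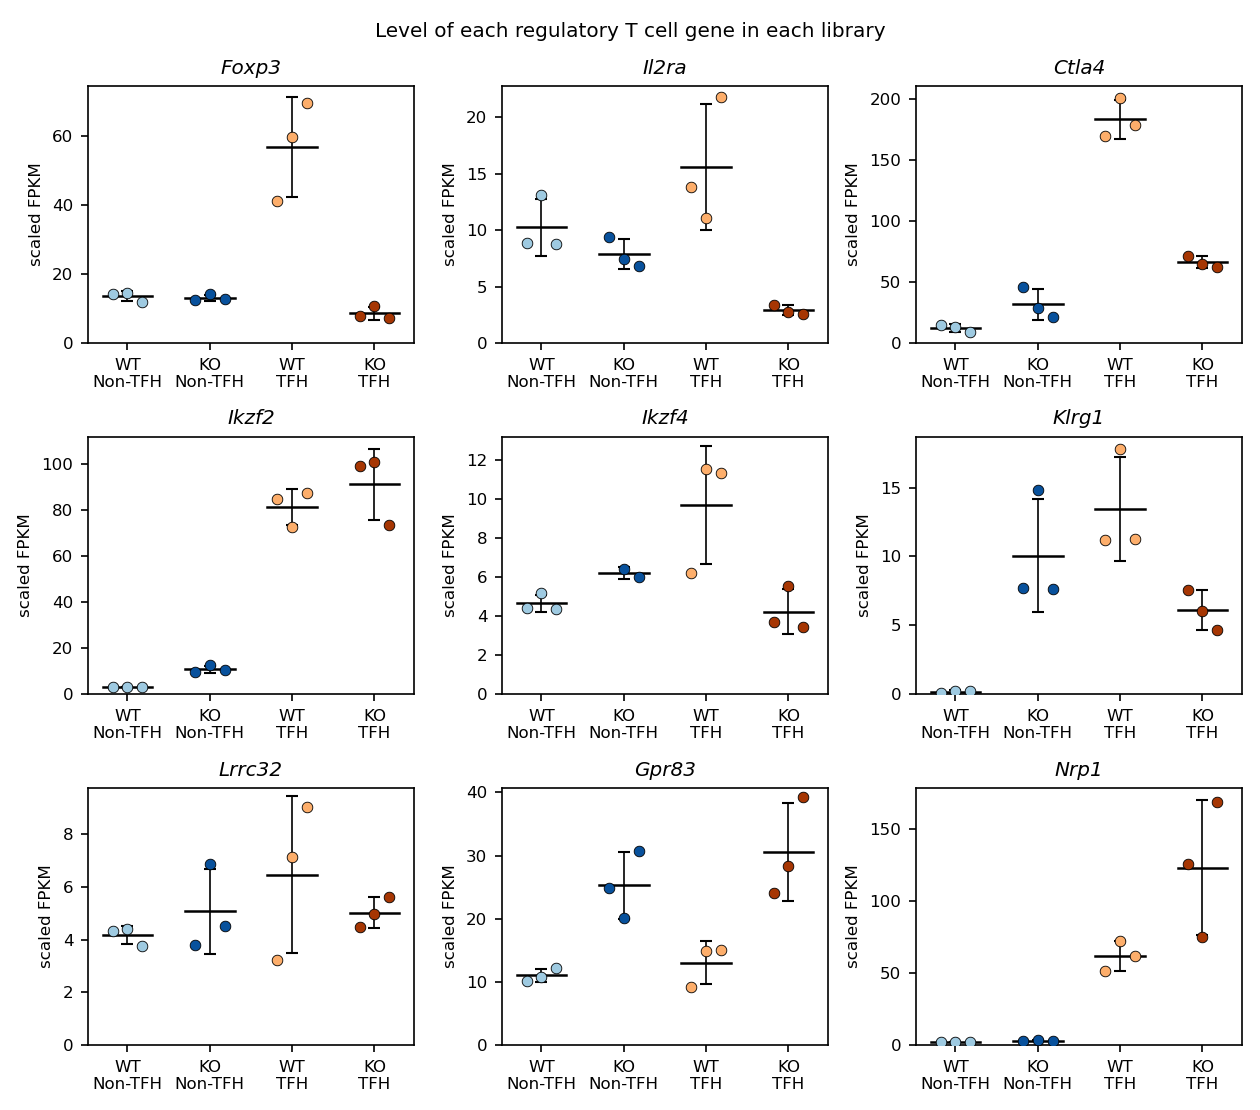
Scaled FPKM (vertical axes, from 0) of each of the 9 genes in each library, by group. Points are libraries 1 to 3 from left to right, horizontal lines are group means and bars are ± 1 SD. Foxp3, at 41.1 to 69.5 in WT TFH libraries, was at 7.22 to 10.7 in KO TFH libraries, while Ikzf2 overlapped between these groups and Gpr83 was higher in the KO libraries of both cell types. Ikzf4 has 2 points in KO Non-TFH cells.

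Il2ra (chromosome 2, 11642792 to 11693194), the CD25 chain that gives the interleukin 2 receptor its high affinity, also fell in KO TFH cells. Its levels were 13.8, 11.1 and 21.8 in WT TFH and 3.4, 2.74 and 2.61 in KO TFH libraries. In Non-TFH cells they were 8.82, 13.1 and 8.78 in WT and 9.36, 7.47 and 6.86 in KO libraries. The 3 KO TFH libraries were the lowest of all 12, and the WT and KO Non-TFH libraries overlapped. Il2ra fell by 2.03 ± 0.24 in KO TFH cells (adjusted p = 6.7e-05), a ratio of WT to KO means of 5.34, and was at -0.33 ± 0.24 in KO Non-TFH cells (adjusted p = 0.41). The difference between the KO effects was -1.71 ± 0.33 (adjusted p = 0.0042). TFH cells were below Non-TFH cells in KO mice (-1.18 ± 0.24, adjusted p = 0.00084), and in WT mice the same comparison gave 0.53 ± 0.24 (adjusted p = 0.065).

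Ctla4 (chromosome 1, 60909025 to 60915832), the receptor that captures CD80 and CD86, moved in opposite directions in the sorted populations. It stood at 170, 201 and 179 in WT TFH and at 71.6, 64.6 and 62.4 in KO TFH libraries. In Non-TFH cells it stood at 15.1, 13.5 and 8.83 in WT and at 45.8, 28.4 and 21.3 in KO libraries. Groups did not overlap in either cell type, and the KO TFH libraries were still above all Non-TFH libraries. In KO TFH cells Ctla4 fell by 1.45 ± 0.24 (adjusted p = 0.00089), whereas in KO Non-TFH cells it rose by 1.25 ± 0.24 (adjusted p = 0.0031). The interaction was -2.70 ± 0.34 (adjusted p = 0.00028).

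Ikzf2 (chromosome 1, 69531207 to 69687351) encodes Helios, an Ikaros family zinc finger protein of regulatory T cells that is also made by other activated T cells. Unlike Foxp3, it was not called in KO TFH cells. Its levels were 84.6, 72.5 and 87.2 in WT TFH and 98.9, 101 and 73.3 in KO TFH libraries, with overlap (0.15 ± 0.14, adjusted p = 0.48). In Non-TFH cells they were 3.24, 3.25 and 3.19 in WT and 9.44, 12.5 and 10.5 in KO libraries, and here Ikzf2 rose by 1.48 ± 0.14 (adjusted p = 1.9e-05), a 3.35-fold higher mean. Ikzf2 was 25.2-fold higher in TFH than in Non-TFH cells of WT mice (4.28 ± 0.14, adjusted p = 7.7e-10) and 8.41-fold higher in KO mice (2.95 ± 0.14, adjusted p = 9.5e-09). The KO effects differed by -1.33 ± 0.20 (adjusted p = 0.00096).

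Ikzf4 (chromosome 10, 128630839 to 128669671) encodes Eos, a partner of Foxp3 in gene silencing. It was at 6.19, 11.5 and 11.3 in WT TFH and at 3.66, 5.53 and 3.45 in KO TFH libraries, without overlap, a fall by 1.01 ± 0.23 (adjusted p = 0.0076). In WT Non-TFH libraries it was at 4.42, 5.15 and 4.36, and in KO Non-TFH libraries 2 and 3 at 6.39 and 5.98 (0.35 ± 0.26, adjusted p = 0.43). KO Non-TFH library 1 gave no value, because there the entry was joined with the ribosomal protein gene Rps26. The interaction was -1.36 ± 0.35 (adjusted p = 0.022), and this call was lost in 6 of 21 alternatives, with adjusted p from 0.0031 to 0.075 over all of them. Of these 6, 5 left out a library: WT Non-TFH 1 or 3 (adjusted p = 0.052 each), KO Non-TFH 2 (0.075) or 3 (0.061), or KO TFH 3 (0.05).

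Klrg1 (chromosome 6, 122270596 to 122282833), an inhibitory receptor for cadherins on differentiated regulatory, effector and natural killer (NK) cells, was nearly absent from WT Non-TFH cells. There it was at 0.0563, 0.228 and 0.247, from an estimated 1 to 4 fragments per library, against 7.72, 14.8 and 7.64 in KO Non-TFH libraries. In TFH cells it was at 11.2, 17.8 and 11.3 in WT and at 7.56, 6.05 and 4.68 in KO libraries. Groups did not overlap in either cell type. Klrg1 rose by 3.18 ± 0.27 in KO Non-TFH cells (adjusted p = 5.4e-06) and fell by 1.01 ± 0.27 in KO TFH cells (adjusted p = 0.013), with an interaction of -4.19 ± 0.38 (adjusted p = 2.7e-05). The size of these values depends on the pseudocount: the rise was 5.21 with 0.1 and 1.51 with 5 in place of 1, and the interaction was -6.33 and -2.23. The KO TFH call was lost with array weights (adjusted p = 0.074) and without KO TFH library 3 (-0.86, adjusted p = 0.053), within a range of 0.0055 to 0.074. Of 7 NK cell genes 3 were called higher and 1 lower in KO Non-TFH cells, against 11.8% and 8.56% of all features. Eomes rose from 1.07 ± 0.169 to 14.9 ± 2.37, Nkg7 from 4.87 ± 1.22 to 37.9 ± 2.79 and Klra8, in an entry shared with Klra21, from 0.636 ± 0.439 to 3.11 ± 0.867 (n = 2), while Prf1 fell from 11.9 ± 0.371 to 1.22 ± 0.37. The sum of both CD8 genes was 10.1 to 14.7 in WT and 96.5 to 107 in KO Non-TFH libraries, with Cd8a at most 0.31 there and Cd8b1 making up the rest, and the part of the NK and CD8 markers in the rise of Klrg1 was not tested.

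Lrrc32 (chromosome 7, 98489305 to 98501831) encodes GARP, which holds latent TGF-beta on the surface of activated regulatory T cells. It was called in no comparison of the scaled values of all libraries. Levels were 3.21, 7.14 and 9.04 in WT TFH and 4.47, 4.98 and 5.62 in KO TFH libraries (-0.22 ± 0.29, adjusted p = 0.61). They were 4.34, 4.39 and 3.76 in WT Non-TFH and 3.8, 6.88 and 4.53 in KO Non-TFH libraries (0.20 ± 0.29, adjusted p = 0.72). All pairs of groups compared overlapped. WT TFH library 1 was the lowest of all 12 libraries, and without it Lrrc32 was higher in TFH than in Non-TFH cells of WT mice (0.81 ± 0.21, adjusted p = 0.0068, against 0.44 ± 0.29 and 0.19 with all libraries). It was also called there without scaling (0.75, adjusted p = 0.037).

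Gpr83 (chromosome 9, 14859880 to 14870789), a G protein-coupled receptor found on regulatory T cells, rose in both KO populations. It was at 9.18, 14.9 and 15.1 in WT TFH and at 24.1, 28.4 and 39.2 in KO TFH libraries. In Non-TFH cells it was at 10.1, 10.8 and 12.2 in WT and at 24.9, 20.1 and 30.8 in KO libraries. All 6 KO libraries were above all 6 WT libraries. The value of KO Non-TFH library 2 had wide deposited bounds, 10.4379 to 26.5938 FPKM before scaling. Read as counting error alone, these bounds would give 21 fragments, against 815 and 907 in KO Non-TFH libraries 1 and 3. Depth was similar in these libraries (13.7 to 14.5 M fragments), so the 21 is not a usable count of fragments. The rise was 1.17 ± 0.22 in TFH (adjusted p = 0.0022) and 1.11 ± 0.22 in Non-TFH cells (adjusted p = 0.004), and the interaction was 0.06 ± 0.32 (adjusted p = 0.93). TFH and Non-TFH cells overlapped within each genotype.

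Nrp1 (chromosome 8, 128358591 to 128505476), the semaphorin and VEGF coreceptor neuropilin-1 that is high on regulatory T cells from the thymus, separated the cell types more than the genotypes. Its entry also held the microRNA gene Mir1903 in all 12 libraries. It was at 51.7, 72.6 and 62.1 in WT TFH and at 126, 75 and 169 in KO TFH libraries, against 2.22, 2.01 and 2 in WT Non-TFH and 2.7, 3.15 and 3 in KO Non-TFH libraries. WT and KO TFH libraries did not overlap, but KO TFH library 2, at 75, was close to WT TFH library 2, at 72.6. Nrp1 rose by 0.92 ± 0.24 in KO TFH cells (adjusted p = 0.012), a call lost when the TFH groups were fitted alone (adjusted p = 0.058, range 0.00049 to 0.058). In KO Non-TFH cells the change was 0.36 ± 0.24 (adjusted p = 0.35). The deposited bounds of Nrp1 ran from 0 to 2381.79, 4048.03 and 3408.41 FPKM in WT TFH libraries 1 and 3 and KO TFH library 2, so these 3 values had no usable precision of their own.

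**Figure D2:**
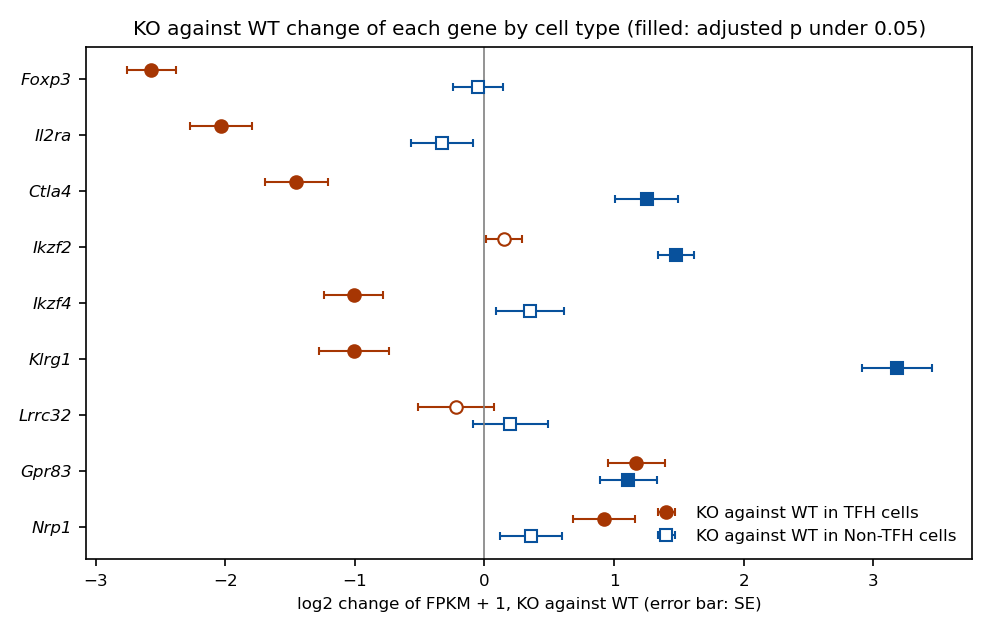
Log2 change of scaled FPKM + 1 between KO and WT libraries (horizontal axis) for each of the 9 genes, in TFH cells (circles) and Non-TFH cells (squares), with bars of ± 1 SE from limma and filled symbols where adjusted p was under 0.05. Foxp3 and Il2ra lay near -2.57 and -2.03 in TFH cells and near 0 in Non-TFH cells, Ctla4 and Klrg1 had filled symbols on both sides of 0, and Gpr83 lay on the right in both.

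Among the 9 genes, 5 were called lower and 2 higher in KO TFH cells, where 15.1% of all features were called lower and 15.8% higher. In KO Non-TFH cells 4 were called higher and 0 lower, against 11.8% and 8.56% of all features. The median change of the 9 genes was -1.01 in TFH and 0.36 in Non-TFH cells, and that of all features was 0.04 and 0.03. Both Ctla4 and Klrg1 were called lower in KO TFH and higher in KO Non-TFH cells, a combination met by 151 features, or 1.36%. The interaction was called lower for 6 of the 9 genes and higher for 0, where 10.6% of all features were called lower and 6.91% higher. The interaction uses the libraries of both KO comparisons, so these counts share samples. A pseudocount of 5 kept the calls of Ikzf2, Ikzf4 and Il2ra but gave smaller changes, with 0.94 for Ikzf2 in KO Non-TFH cells, and -0.66 for Ikzf4 and -1.34 for Il2ra in KO TFH cells. The macrophage sum was likewise lower in KO than in WT TFH libraries and higher in KO than in WT Non-TFH libraries. Neither its part nor that of the sex-linked genes in the changes of the 9 genes was tested.

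In WT mice 6 of the 9 genes (Foxp3, Ctla4, Ikzf2, Ikzf4, Klrg1 and Nrp1) were called higher in TFH than in Non-TFH cells and 0 lower, against 35.2% and 32.3% of all features. Without scaling, where the median of all features moved to 0.37, all 9 were called higher, Il2ra, Lrrc32 and Gpr83 included. In that fit 7694 features were called in either direction, against 7497 with scaling. The share of all features called higher without scaling was not counted, so the 9 of 9 cannot be set beside it. In KO mice 3 were higher (Ctla4, Ikzf2 and Nrp1) and 2 lower (Foxp3 and Il2ra), against 33.4% and 33.7%. The order of levels changed with it. In WT TFH cells Ctla4 (183 ± 16.2) led, followed by Ikzf2 (81.5 ± 7.85), Nrp1 (62.1 ± 10.5) and Foxp3 (56.8 ± 14.4), with overlap between Ikzf2 and Nrp1 and between Nrp1 and Foxp3. In KO TFH cells Nrp1 (123 ± 47.2) and Ikzf2 (91 ± 15.4), which overlapped, came before Ctla4 (66.2 ± 4.8) and Gpr83 (30.5 ± 7.79), and Foxp3 (8.61 ± 1.83) was next, at a level that overlapped Klrg1 (6.1 ± 1.44). Il2ra was the lowest of the 9 genes in KO TFH cells, at 2.92 ± 0.42.

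Divided by the Foxp3 value of the same library, the other genes did not keep the proportions of WT TFH cells. Ikzf2 was 1.21 to 2.06 times Foxp3 in WT TFH and 9.45 to 12.5 times in KO TFH libraries. Nrp1 went from 0.893 to 1.26 times Foxp3 to 7.02 to 23.4 times, and Gpr83 from 0.217 to 0.249 to 2.65 to 5.43 times. Even Ctla4 and Ikzf4, which fell, were higher relative to Foxp3 in KO TFH cells, at 6.04 to 9.03 against 2.57 to 4.13 for Ctla4 and 0.462 to 0.518 against 0.151 to 0.193 for Ikzf4. Il2ra, at 0.186 to 0.334 in WT and 0.257 to 0.429 in KO TFH libraries, was the only one of the 8 whose ratios overlapped between these groups. For scale, Cd3e, a chain of the T cell receptor complex, went from 9.47 to 15.7 times Foxp3 to 40.7 to 72.9 times. These ratios share the Foxp3 value of each library and were not tested.

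**Figure D3:**
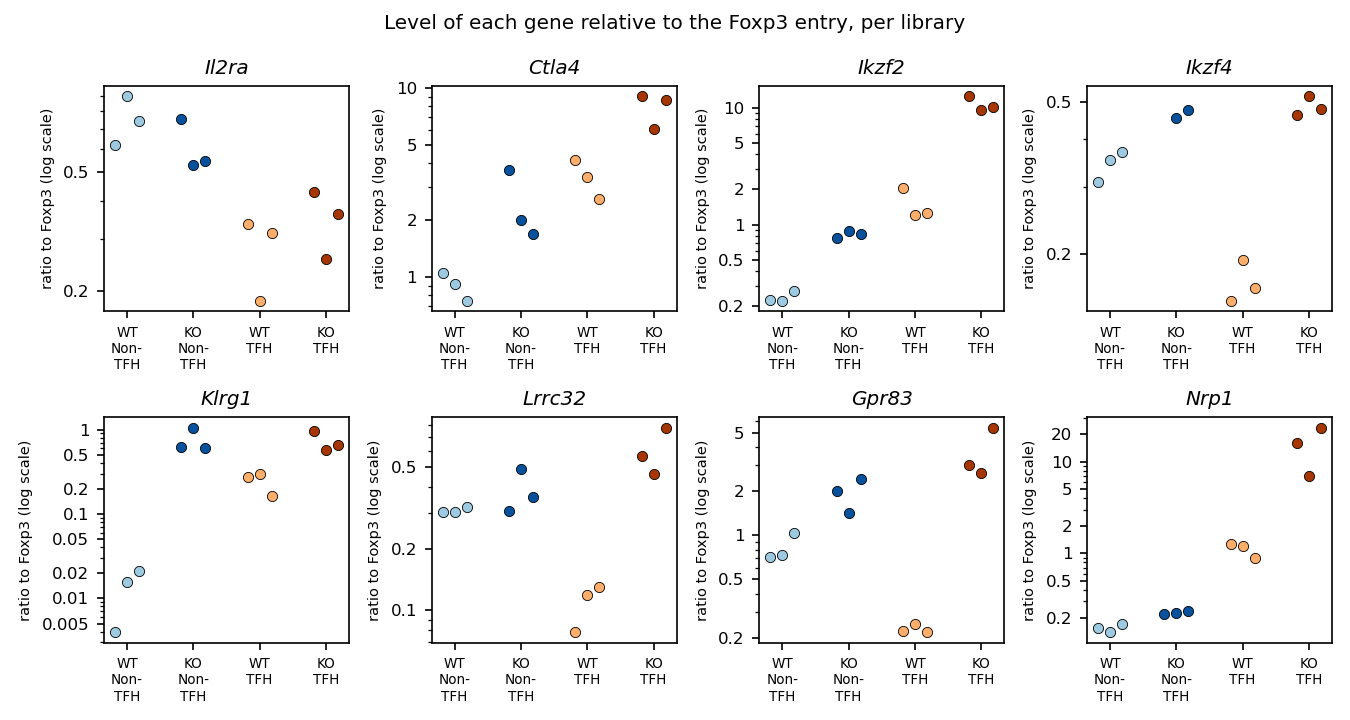
Level of each of the 8 other genes divided by the level of the Foxp3 entry in the same library (vertical axes, log scale), by group, with 1 point per library and no test. For Ikzf2 the KO TFH libraries sit at 9.45 to 12.5 and the WT TFH libraries at 1.21 to 2.06, whereas for Il2ra these groups overlap.

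Of 28 further genes associated with regulatory T cells, 9 were called lower, 6 higher and 13 neither in KO TFH cells (median -0.10), where 15.1% of all features were called lower and 15.8% higher. Entpd1, the ectonucleotidase CD39, fell by 2.30 ± 0.24 from 12.6 ± 2.67 to 1.81 ± 0.837. Areg, the tissue repair factor amphiregulin, fell by 2.32 ± 0.28, and the inhibitory receptor gene Lag3 fell by 1.36 ± 0.19 from 5.59 ± 1.14 to 1.56 ± 0.413. Il1r2, a decoy receptor for interleukin 1 known from follicular T cells, rose by 2.81 ± 0.29 from 40.6 ± 22 to 266 ± 32.1, and the phosphatase gene Dusp4 rose by 1.87 ± 0.20. Pdcd1 rose by 0.85 ± 0.10, but PD-1 was part of the sort gate.

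In KO Non-TFH cells 16 of the 28 were called higher, 1 lower and 11 neither (median 1.01), against 11.8% and 8.56% of all features. Tigit, an inhibitory receptor, rose by 4.24 ± 0.14 from 0.503 ± 0.166 to 27.5 ± 3.46. Nt5e, the ectonucleotidase CD73, rose by 2.98 ± 0.09 from 12.8 ± 0.285 to 109 ± 2.87, and the costimulatory receptor gene Tnfrsf9 rose by 3.26 ± 0.17 from 3.55 ± 0.537 to 42.4 ± 2.54. In KO TFH cells none of these 3 was called (0.16 ± 0.14, 0.01 ± 0.09 and 0.32 ± 0.17). Tgfb1 was the gene called lower in KO Non-TFH cells (-0.54 ± 0.17, adjusted p = 0.046). Tnfrsf18 (GITR), Ccr4, Ccr8, Fgl2 and Lag3, like Ctla4 and Klrg1, were called lower in KO TFH and higher in KO Non-TFH cells. This combination was met by 1.36% of all features. The interaction was called lower for 17 of the 28 genes and higher for Pdcd1 and Il1r2 (median -2.02), against 10.6% and 6.91% of all features. In WT mice 27 were higher in TFH than in Non-TFH cells and Tgfb1 was lower, against 35.2% and 32.3%.

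**Figure D4:**
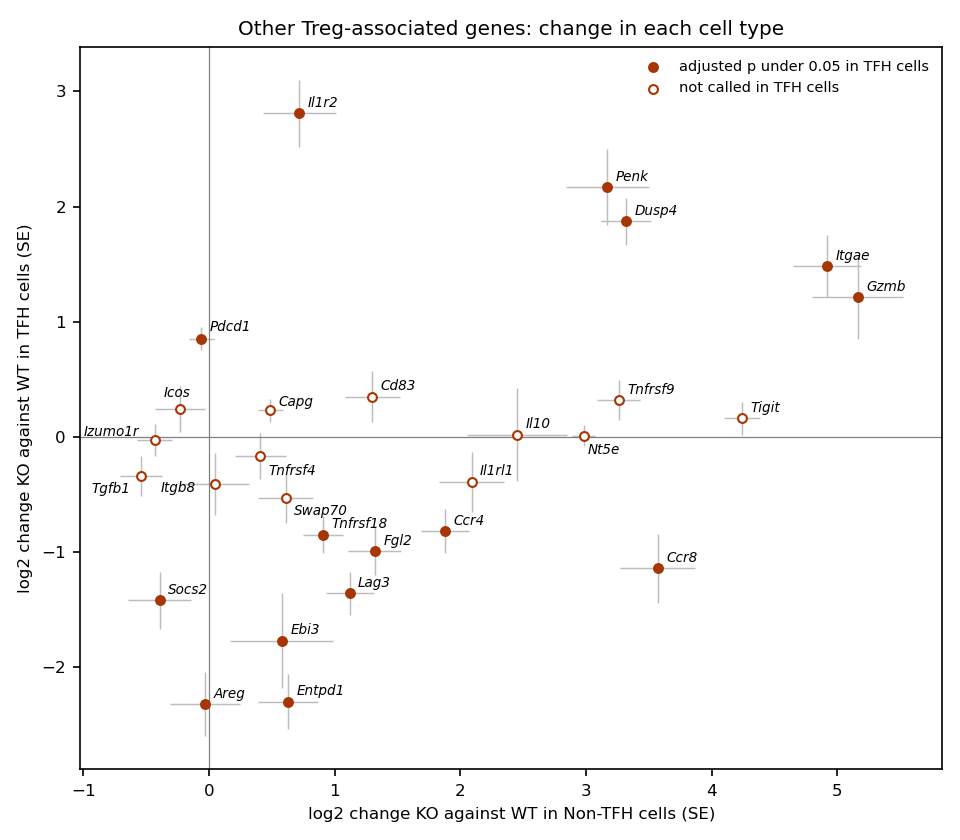
Log2 change between KO and WT libraries in Non-TFH cells (horizontal axis) and in TFH cells (vertical axis) for 28 further genes associated with regulatory T cells, with bars of ± 1 SE from limma and filled points where adjusted p was under 0.05 in TFH cells. Tigit, Nt5e and Tnfrsf9 lie far to the right near 0 on the vertical axis, and Entpd1 and Areg lie below -2 on it near the vertical line.

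Of 12 genes of the interleukin 2 receptor and its STAT5 pathway, 7 were called lower and 1 higher in KO TFH cells (median -0.37), and 4 higher and 1 lower in KO Non-TFH cells (median 0.22), beside the same shares of all features. Il2rb, the chain that signals with CD25, fell by 0.92 ± 0.08 in KO TFH cells from 177 ± 14.2 to 93.1 ± 2.63 and rose by 1.57 ± 0.08 in KO Non-TFH cells from 30.2 ± 1.2 to 91.4 ± 2.1. Il2, the cytokine itself, fell by 1.96 ± 0.29 in KO TFH cells from 3.43 ± 2.01 to 0.0591 ± 0.102. Jak3, the kinase of the common chain, measured in an entry shared with Insl3, fell by 1.24 ± 0.17 in TFH and by 1.28 ± 0.17 in Non-TFH cells. The feedback inhibitor gene Socs1 rose by 1.21 ± 0.36 and 2.02 ± 0.36, and the survival gene Bcl2 rose by 1.08 ± 0.13 in KO Non-TFH cells. For this group the interaction was called lower in 6 and higher in 0 genes, against 10.6% and 6.91% of all features.

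Of 26 genes that regulate Foxp3 or work with its protein, 7 were called higher, Ets1 among them, and 7 lower in KO TFH cells (median -0.01), beside 15.8% and 15.1% of all features. Irf4, a factor of effector regulatory T cells, fell by 1.68 ± 0.21 from 10.7 ± 2.28 to 2.68 ± 0.842. Foxo1, which acts on the Foxp3 locus, fell by 0.89 ± 0.15, and Prdm1, which encodes Blimp-1, fell by 1.53 ± 0.28. Gata3, measured in an entry shared with 9230102O04Rik, rose by 1.32 ± 0.15, the TGF-beta signal transducer gene Smad3 by 0.92 ± 0.16, and Cbfb, the partner of Runx factors at the Foxp3 locus, by 0.91 ± 0.18. In KO Non-TFH cells 2 were higher (Batf at 1.19 ± 0.14 and Smad3 at 0.86 ± 0.16), 2 were lower (Nfatc2 at -1.31 ± 0.11 and Runx1 at -0.43 ± 0.11) and 22 were not called, beside 11.8% and 8.56% of all features.

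Relatives and partners of single members were measured as well. Of all features, 15.8% were called higher and 15.1% lower in KO TFH cells, and 11.8% and 8.56% in KO Non-TFH cells. Of the other Ikaros family genes, Ikzf1 rose by 1.17 ± 0.13 in KO TFH cells, Ikzf3 by 0.74 ± 0.14 in TFH and 1.75 ± 0.14 in Non-TFH cells, and Ikzf5 was not called. Of 7 tested genes around the activation of TGF-beta by GARP, 4 fell and 0 rose in KO TFH cells. Itgav, an integrin chain that releases TGF-beta, fell by 1.15 ± 0.14, the receptor gene Tgfbr2 by 0.65 ± 0.10 and Nrros, a relative of Lrrc32, by 0.90 ± 0.14. In KO Non-TFH cells Tgfbr1 rose by 1.53 ± 0.22 and Tgfb1 fell by 0.54 ± 0.17 (adjusted p = 0.046). Cd86, a ligand of CTLA-4 made mainly by antigen-presenting cells, was the only called gene of 4 CTLA-4 partners in both KO comparisons, with a fall by 1.41 ± 0.17 in TFH and a rise by 3.03 ± 0.17 in Non-TFH cells. Of 9 follicular T cell genes 6 were higher in KO TFH cells, led by Pou2af1 (2.15 ± 0.15), Sh2d1a (1.48 ± 0.10) and S1pr2 (1.76 ± 0.14), and Il21 was lower (-0.53 ± 0.16). In KO Non-TFH cells 5 were higher, led by Tox2 (2.01 ± 0.26), Bcl6 (0.61 ± 0.12) and Maf (0.88 ± 0.19), and 0 lower. Of 7 T cell identity genes 3 were higher in both KO comparisons, Cd247 (1.26 ± 0.07 in TFH and 1.22 ± 0.07 in Non-TFH cells), Cd2 (0.72 ± 0.09 and 1.0 ± 0.09) and Cd3g (0.30 ± 0.08 and 0.67 ± 0.08). Cd5 was lower in both (-0.59 ± 0.08 and -1.20 ± 0.08), and Cd3e was lower in KO TFH cells (-0.52 ± 0.09).

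The 5 features most like Foxp3 over the 12 libraries were Gm5150 (Pearson r = 0.980 on the log2 scale), Lmna (0.976), Pak1 (0.974), Rab31 (0.971) and Ctss (0.968). All 5 were highest in WT TFH cells and fell in KO TFH cells, a pattern that follows from choosing them by likeness to Foxp3. Ctss encodes cathepsin S, a protease of antigen-presenting cells, and stood at 256 ± 20.9 in WT TFH, 109 ± 8.84 in KO TFH, 145 ± 3.03 in WT Non-TFH and 120 ± 6.24 in KO Non-TFH libraries. Among the 8 other regulatory T cell genes, Ikzf4 was most like Foxp3 (r = 0.90 over 11 libraries), followed by Il2ra (0.79) and Ctla4 (0.63). Gpr83 ran the other way (-0.53). The points of these correlations are 4 groups of 3 libraries and share their sorts and scaling, so they describe group differences and were not tested.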

How the data were processed

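Poly(A) RNA sequencing libraries (stranded, per the labels' protocols) were quantified by the submitters. The deposited values are FPKM with lower and upper bounds, in a separate gene table per library, on mm10. Per the submitters' processing notes, the tools were FastQC and cutadapt as well as Bowtie, Bowtie2, TopHat, TopHat2, Cuffdiff and Cufflinks. Their versions and order were not given in the sources used here. The tables hold no counts. Cufflinks had joined some overlapping genes into shared entries. A gene with an entry of its own in at least 2 libraries of every group was kept alone (22451 features), and the others were summed with their neighbours (782 joint features). FPKM were scaled by median ratios over 7090 features (factors 0.851 to 1.13), and features reaching 1 FPKM in at least 3 libraries entered the test as log2(scaled FPKM + 1) with limma 3.58.1 in R 4.3.3 (variance trend, robust moderation, all 12 libraries, mean per group) and Benjamini-Hochberg adjustment. Comparisons were KO against WT in each cell type, TFH against Non-TFH cells in each genotype, and the interaction. A missing value was left missing. Without scaling the median of all features moved to 0.37 in WT and 0.27 in KO mice between cell types. Fragments behind a value and depth were estimated by taking the deposited bounds as 2 Poisson standard deviations from the FPKM, which is an assumption. The estimates leave out variation between libraries, and they are too low where the bounds hold more than counting error. For Nrp1 they gave 0 fragments at 58.5591 to 85.1147 FPKM in WT TFH libraries 1 and 3 and KO TFH library 2.

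The 9 genes and the gene lists were chosen with earlier results of these data known. All 9 genes are named. Of each list (28 other regulatory T cell genes, interleukin 2 pathway, Foxp3 regulators, Ikaros family, GARP and TGF-beta, CTLA-4 partners, follicular and T cell identity genes), up to 3 called genes with the smallest adjusted p per direction are named for each KO against WT comparison. Those of the other comparisons are not all given. Some named genes fall outside this rule: those of the opposite pattern and the marker and sort genes were named after their values were seen. Marker sums use genes with an entry of their own. Alternatives were no scaling, quantile normalization, other pseudocounts and filters, array weights, blocks, fits of the compared groups alone and leaving out each library. Python 3.11.15, pandas 2.3.3, numpy 2.4.6, scipy 1.17.1 and matplotlib 3.10.9 were used.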

Additional observations from a re-analysis of the deposited data

Results flagged for a closer look

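For 6 of the 9 regulatory T cell genes the KO effect in TFH cells differed from that in Non-TFH cells by the interaction test in limma. All 6 were called lower, where 10.6% of all features were called lower and 6.91% higher. The difference, as the change in TFH cells minus the change in Non-TFH cells on the log2 scale, was -2.52 ± 0.27 (SE) for Foxp3 (adjusted p = 9.1e-05) and -1.71 ± 0.33 for Il2ra (adjusted p = 0.0042), both called lower in KO TFH and not called in KO Non-TFH cells. It was -2.70 ± 0.34 for Ctla4 (adjusted p = 0.00028) and -4.19 ± 0.38 for Klrg1 (adjusted p = 2.7e-05), which changed in opposite directions in the sorted populations. For Ikzf2 it was -1.33 ± 0.20 (adjusted p = 0.00096), where the gene rose in KO Non-TFH cells and was not called in KO TFH cells. For Ikzf4 it was -1.36 ± 0.35 (adjusted p = 0.022), with 2 libraries in KO Non-TFH cells.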

How the results depend on the processing

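None of the log2 changes called for the 9 genes reversed under any alternative. Over all 45 combinations of gene and comparison, called or not, 932 refits kept their side of the threshold, 17 gained a call and 14 lost it. Foxp3 in KO TFH cells was called in all 21 alternatives (-2.78 to -2.16, adjusted p 2.5e-06 to 0.00015). Features called between genotypes numbered 3425 in TFH and 2260 in Non-TFH cells, and 2228 and 4174 with array weights and 2203 and 3637 with only the compared groups fitted, and the cause was not tested. Leaving out each library gave 2824 to 3225 features (6 to 7 of the 9 genes) in TFH, 1636 to 2473 (4 in each case) in Non-TFH, 6907 to 7550 (6 to 7) between cell types in WT and 6844 to 7630 (4 to 6) in KO mice, and 1466 to 1970 (5 to 7) for the interaction. Without KO Non-TFH library 2 or 3, Ikzf4 had a lone value there, assumed to vary like the other groups. Il2ra gained a call between cell types in WT mice in 4 alternatives (adjusted p 0.0056 to 0.26 over all 22), and Nrp1 gained an interaction call without KO TFH library 2 (0.87, adjusted p = 0.026). Same-numbered libraries did not deviate together (correlations -0.03 to 0.06). Deviations from means of 3 libraries cannot decide whether equal numbers mark the same mouse, so blocks were fitted too. The Y-linked gene Ddx3y was at 0 in all KO TFH libraries and at 40.6 to 44.8 in KO Non-TFH libraries. Libraries of the same mouse would share its sex, so in KO mice equal numbers did not mark the same mouse. There a block with genotype and number joins libraries that differ in Y-linked transcripts. With the number as a replicate block, 3240, 2104, 7407, 7393 and 1728 features were called in the 5 comparisons, and 7, 4, 6, 6 and 6 of the 9 genes. With genotype and number as the block, 7216, 7194 and 1414 features and 6, 5 and 5 genes were called between cell types (WT, KO) and in the interaction. Foxp3 from entries of its own was not run, since no library had such an entry. Klrg1 in WT Non-TFH cells, at 1 to 4 estimated fragments, is limited by depth.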

Other observations

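Among the 9 genes, Ikzf2 and Nrp1 had the most similar levels over the 12 libraries (Pearson r = 0.95 on the log2 scale), and Ctla4 followed Ikzf2 (0.89) and Nrp1 (0.81) more closely than it followed Foxp3 (0.63). Il2ra and Gpr83 ran in opposite directions (-0.73). These values describe 4 groups of 3 libraries and were not tested.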
